A study of Mus musculus with 2 samples.

Results

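Gene-desert regions are taken here as accessible regions of chromatin outside every protein-coding gene body whose strongest summit lay over 100 kb from every protein-coding transcription start site (TSS). Overlapping peaks of the authors' list past a threshold on the irreproducible discovery rate (IDR) were merged, and 1114 of the 26090 regions met that rule, or 4.27% (Wilson 95% interval 4.03 to 4.52%). They were made from 1665 of the 48668 peaks. The chromatin came from primary activated regulatory T cells of adult male mice aged 4 months that carried Foxp3CreERT2 and Rosa26YFP alleles, in which the tamoxifen-inducible Cre is expressed from the Foxp3 locus and the fluorescent reporter from Rosa26. Both libraries were technical replicates of 1 biological replicate, the lists describe them together, and no control group or second cell type was measured, so no value below has a replicate behind it. The sources used here do not say how the cells were activated and sorted.

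ATAC-seq reads open chromatin as the places where a transposase can insert. Accessible sites far from promoters are often enhancers, which bind transcription factors and act on genes across long stretches of intergenic DNA, or sites bound by CTCF, which organises chromatin loops. Gene deserts are known both for near-empty stretches beside neural genes and for enhancers of single regulators, such as the desert beside Myc that controls this growth regulator in blood cells. Activated T cells use AP-1, NFAT and NF-kB downstream of the T cell receptor, beside the lineage factors of the ETS and RUNX families.

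The cell type label was checked at promoters. A promoter region was present at 4 of 5 genes of regulatory T cells (Foxp3, Il2ra, Ctla4 and Ikzf2, not Tnfrsf18) and at 3 of 4 general T cell genes (not Cd4). It was present at 1 of 2 CD8 T cell genes (Cd8b1) and, among B cell genes, at Pax5 but not at Cd79a and Ms4a1. None of 4 myeloid, 2 natural killer and 2 erythroid genes had a promoter region. The part of other cells in the results was not tested. The depth of the libraries is unknown.

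Sequences of 121 bases are shown for chosen members. The first group was picked for its motif matches, so it does not stand for the members as a whole. They were read from the RefSeq copy of GRCm38, the assembly of mm10, on the plus strand, and are named by the genes on either side. The first group has, from each of the 8 gaps between genes that hold the most regions outside antigen receptor loci, the single-copy member with the most motif matches. A member is single-copy when the 31-base words around its summit occur, at the median, once in the genome. Capitals mark matches to the motifs searched, and base 61 is the summit. The 5 matches of the Foxo1–Cog6 member (chr3:52555188-52555308) were a T-box match that overlaps an AP-1 match, a RUNX match on either side of the summit, and an E-box. The Zeb2–Acvr2a member (chr2:48456744-48456864) joined AP-1, ETS and RUNX matches, and the Id2–Rnf144a member (chr12:25240192-25240312) joined AP-1, NF-kB and RUNX. In the Ptger4–Dab2 member (chr15:5695147-5695267), 2 E-boxes stood before an NFAT match that overlaps an NF-kB match. The Klf14–Mkln1 member (chr6:31100891-31101011) held forkhead, NFAT and AP-1 matches. The other 3 were at chr15:62779029-62779149 in the gap of Myc and Gsdmc, chr10:96391795-96391915 between Gm5426 and Btg1 and chr12:107139101-107139221 between Vrk1 and 3110018I06Rik.
Foxo1–Cog6: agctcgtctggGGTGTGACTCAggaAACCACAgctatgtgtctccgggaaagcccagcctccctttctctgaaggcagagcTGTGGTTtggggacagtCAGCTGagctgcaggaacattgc
Klf14–Mkln1: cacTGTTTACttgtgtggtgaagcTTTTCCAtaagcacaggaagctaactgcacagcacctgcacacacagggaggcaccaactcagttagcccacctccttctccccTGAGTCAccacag
Myc–Gsdmc: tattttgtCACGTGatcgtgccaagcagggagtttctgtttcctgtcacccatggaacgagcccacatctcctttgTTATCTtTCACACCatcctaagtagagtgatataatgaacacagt
Gm5426–Btg1: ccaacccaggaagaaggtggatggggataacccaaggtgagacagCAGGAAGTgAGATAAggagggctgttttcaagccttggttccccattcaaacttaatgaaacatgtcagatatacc
Id2–Rnf144a: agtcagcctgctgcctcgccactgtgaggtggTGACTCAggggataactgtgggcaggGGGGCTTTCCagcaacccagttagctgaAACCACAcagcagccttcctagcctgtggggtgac
Vrk1–3110018I06Rik: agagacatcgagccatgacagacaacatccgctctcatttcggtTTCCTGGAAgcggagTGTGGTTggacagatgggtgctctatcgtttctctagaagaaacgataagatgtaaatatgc
Zeb2–Acvr2a: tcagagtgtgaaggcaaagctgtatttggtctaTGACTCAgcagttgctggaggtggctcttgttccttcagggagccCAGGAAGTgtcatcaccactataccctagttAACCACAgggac
Ptger4–Dab2: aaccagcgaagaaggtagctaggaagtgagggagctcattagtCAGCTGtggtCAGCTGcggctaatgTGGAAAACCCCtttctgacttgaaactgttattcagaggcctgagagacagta

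A second group shows members that stand apart. The strongest member without mitochondrial sequence was Pdcd1–Fam174a (chr1:94469904-94470024), and the farthest from any TSS was Cntnap5b–Cdh20 (chr1:102628214-102628334). The Gm10800–B230118H07Rik member (chr2:101472885-101473005) was the strongest single-copy member with a CTCF match, here in capitals. The other 2 were the strongest of the immunoglobulin heavy chain locus (chr12:114991034-114991154) and of the T cell receptor alpha and delta locus (chr14:53174183-53174303). The heavy chain member carried a RUNX match next to CACTGTG, the reverse complement of the heptamer CACAGTG of the recombination signal that the RAG enzymes cut.
Pdcd1–Fam174a: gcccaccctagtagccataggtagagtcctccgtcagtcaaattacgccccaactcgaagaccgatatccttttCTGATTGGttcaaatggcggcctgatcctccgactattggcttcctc
Cntnap5b–Cdh20: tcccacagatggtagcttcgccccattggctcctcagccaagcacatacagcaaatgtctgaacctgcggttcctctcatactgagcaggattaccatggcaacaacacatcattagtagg
Gm10800–B230118H07Rik: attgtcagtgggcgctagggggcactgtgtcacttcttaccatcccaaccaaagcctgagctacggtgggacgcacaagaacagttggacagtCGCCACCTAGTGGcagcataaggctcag
Adam6a–Zfp386: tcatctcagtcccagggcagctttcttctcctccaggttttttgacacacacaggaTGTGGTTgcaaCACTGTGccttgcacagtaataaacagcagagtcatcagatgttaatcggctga
Olfr1507–Dad1: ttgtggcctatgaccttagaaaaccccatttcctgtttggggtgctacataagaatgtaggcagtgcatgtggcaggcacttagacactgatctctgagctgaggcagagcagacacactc

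The last pair shows 2 related members on chromosome 17, at chr17:16951398-16951518 and chr17:17234715-17234835. Capitals mark the bases that differ, and base 61 of the first is its summit. They differed at 7 of 121 bases and were 94.2% identical.
Rgmb–Zfp960: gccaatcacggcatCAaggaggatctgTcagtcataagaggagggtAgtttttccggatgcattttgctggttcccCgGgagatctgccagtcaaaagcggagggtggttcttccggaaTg
Zfp97–Riok2: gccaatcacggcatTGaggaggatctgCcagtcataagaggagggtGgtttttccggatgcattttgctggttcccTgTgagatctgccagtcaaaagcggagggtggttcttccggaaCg

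Desert sequence by the same rule made up 834 Mb, or 31.5% of the 2648 Mb of known sequence of chromosomes 1 to 19, X and Y. The 1114 members covered 655 kb of it. That is 1.34 regions per Mb, against 8.19 in intergenic sequence within 100 kb of a TSS, 8.09 in gene bodies over 1 kb from a TSS, and 113 within 1 kb of a TSS (promoters). The density was 0.163 times that of the nearer intergenic sequence.

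The members were sparse, but their signal was close to that of other distal regions. The signal value is the authors' enrichment per peak, a unit with no stated reference, and each region takes that of its strongest peak. The median over the 1108 members without mitochondrial sequence was 13.5 (quartiles 10.46 and 17.3, range 2.70 to 33.0; 95% interval of the median 13.2 to 13.8). The median was 13.03 in nearer intergenic regions, 12.1 in gene bodies and 15.4 in promoters. The difference of 0.506 from nearer intergenic regions had bounds of -0.00757 and 0.989, and in the authors' longer pseudoreplicated list its sign turned, to -0.509. Regions are not replicates, so these intervals, like all shares below, cover counting error only.

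Widths followed the same order. The median member was 558.5 bp wide, against 546.5 bp in nearer intergenic regions, 515 bp in genes and 832 bp at promoters. More than 1 summit was found in 37.5% of members (34.7 to 40.3%), against 40.7%, 35.9% and 73.4%. In the authors’ deposited IDR values, 0.01 or below was reached by 752 members, 67.9%, beside 68.5% of nearer intergenic regions and 88.0% of promoters. The authors’ deposited ranking values of the 2 inputs to the IDR are −log10 p-values. On that log scale they lay within 2-fold of each other for 97.7% of members and 97.9% of nearer intergenic regions. The shares were 98.1% of regions in genes and 98.4% of promoters. In width, number of summits and IDR the members lay closer to other distal regions than to promoters, while the last measure was alike in all 4 classes. The list was thresholded on the IDR of the same 2 inputs, so closeness between them was partly set by that selection.

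**Figure D1:**
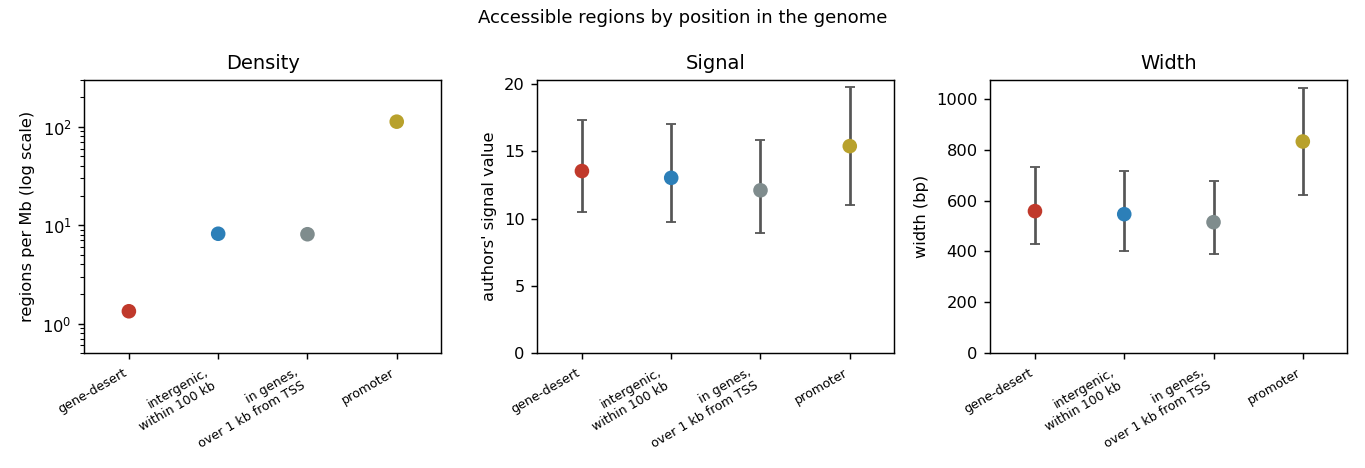
Regions per Mb of eligible sequence on a log axis, the authors' signal value and region width in bp for 4 classes of position; for signal and width, points are medians and bars are quartiles over regions without mitochondrial alignment. Gene-desert regions are at 1.34 per Mb, the lowest density, with a median signal of 13.5 that lies between the genic 12.1 and the promoter 15.4.

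The summits were poorer in G and C than those of other classes. Within 100 bp of the summit the median GC content was 47.8%, against 50.2% in nearer intergenic regions and 63.2% in promoters. The ratio of observed to expected CpG dinucleotides had a median of 0.243 against 0.295 and 0.806. A soft-masked share (repeats) over 50% was found in 1.90% of members and in 3.23% of nearer intergenic regions. Sequence with copies elsewhere was more frequent, in 49 members or 4.42% (3.36 to 5.80%), against 2.21% (1.88 to 2.61%) nearby. Of these 49, 21 lay in antigen receptor loci. Copied members had a median signal of 15.8 and the 1059 single-copy members 13.5. The sources used here do not say how reads with several possible positions were placed.

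The distance from a TSS had a median of 179 kb (quartiles 135 and 264 kb) and reached 2140255 bp. Signal did not fall with it: the median was 13.5 in the 664 members at 100 to 200 kb, 13.7 in the 352 at 200 to 500 kb and 13.7 in the 92 beyond 500 kb that had no mitochondrial sequence. The share in clusters, defined below, was 54.2%, 52.8% and 38.8% in the same order. Many members beyond 500 kb lay in antigen receptor loci, described below, and these values were not taken without them. At the edge of the rule, the members just inside lay 100060 bp from Chic2 (signal 21.7) and 100305 bp from Tmsb4x (7.83), and the regions just outside 99935 bp from Ppm1h (16.9) and 99851 bp from Chm (14.9). The 100 members at 100 to 110 kb had a median signal of 14.4, and the 122 regions at 90 to 100 kb 13.04.

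Chromosomes differed widely in density. Chromosome 10 had 109 members at 2.95 per Mb of desert sequence, the highest, followed by chromosome 13 with 94 at 2.49 and chromosome 12 with 118 at 2.40. Of the chromosome 12 members, 25 lay in the immunoglobulin heavy chain locus, whose segments are not annotated as protein-coding genes. Chromosome 11, with little desert sequence, had 12 members at 0.461 per Mb. The X chromosome had 18 at 0.311 per Mb and the Y chromosome 1 at 0.0168 per Mb. Males carry 1 copy of each sex chromosome per cell, and its part in these densities was not tested.

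Most desert sequence held no region at all. Of 1898 gaps between neighbouring protein-coding genes that contain desert sequence, 364 held a member, 19.2% (17.5 to 21.01%), and 1534 held none. The empty gaps made up 619 Mb, 74.3% of desert sequence. Of 236 gaps over 1 Mb wide, 171 were empty. The widest with no member lay between Tenm3, an adhesion gene of neurons, and Aga (4668 kb), and between the protocadherin genes Pcdh20 and Pcdh9 (4542 kb). In contrast, 19 gaps held 10 or more, and the 10 fullest held 185 members, 16.6% of all, in 1.58% of the desert sequence. Of the 10 fullest, Adam6a–Zfp386 (24 members) and Olfr1507–Dad1 (18) hold antigen receptor loci, described below.

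The gap between Foxo1, a forkhead factor needed for regulatory T cell function, and Cog6 held the most, 25 members in 629 kb. Their signal ranged from 2.82 to 26.9 with a median of 14.5. The strongest lay 287 kb from Foxo1, and 10 members were nearest to Foxo1 and 15 to Cog6. All 25 fell into 3 clusters of 7, 8 and 10, so the gap was filled over most of its length rather than at 1 end.

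The gap between Klf14 and Mkln1 held 20 members that formed 1 cluster of 143 kb, the largest of all. Of these, 17 lay in the body of Lncpint, a long noncoding RNA (lncRNA) gene. Their signal was low: the gap's values ran from 3.44 to 13.9, with a median of 9.05. Klf14 itself had no promoter region and Mkln1 had one.

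Downstream of Myc, the desert up to Gsdmc held 19 members. The 12 nearest to Myc, 104 to 284 kb from its TSS, lay in the body of Pvt1, the lncRNA gene beside Myc, with signal from 4.62 to 17.3. The strongest of the gap stood alone at 470 kb (21.1), and a cluster of 5 at 743 to 822 kb had values from 8.63 to 12.9. The last member lay 685 kb from Gsdmc (14.1). On the other side of Myc another 6 members brought the number in its bordering gaps to 25.

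Regulators of T cell fate bordered several of the other full gaps. Between Celf2 and Gata3, a factor of T helper cells that regulatory T cells also use, all 13 members were nearest to Gata3, at 124 to 909 kb. Their signal was 7.49 to 23.0, with the lowest and 5 others in a cluster at 124 to 215 kb. The 12 members past Ets1, an ETS factor of lymphocytes, were all nearest to it. The strongest was the nearest, at 102 kb (25.4), and 8 formed a cluster at 205 to 245 kb with values from 5.28 to 14.1. In these 2 gaps no member was closer to the gene on the other side.

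Id2, an inhibitor of E proteins, had 10 of the 17 members of its gap in a cluster 120 to 263 kb away, with signal from 9.91 to 19.6. The other 7 members were nearest to Rnf144a. The gap of Ptger4, a receptor for prostaglandin E2, had 14 members, of which 13 were nearest to Ptger4 at 170 to 518 kb. Within its cluster of 8 members, 3 neighbours had low values of 4.81, 5.99 and 6.53, and the nearest member to Ptger4 was the strongest (20.5).

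The gap between Zeb2, a transcriptional repressor of effector lymphocytes, and Acvr2a had its 15 members in separate groups. The 4 nearest to Zeb2 were 1185 to 1327 kb away (7.39 to 16.8), and Zeb2 had no promoter region. The other 11 were nearest to Acvr2a, at 337 to 812 kb, and 8 of them lay in the body of the lncRNA gene Gm13481. The gap of Bcl2l11, which encodes the death protein Bim, held 13 members in 1 cluster, all in the body of the lncRNA gene Gm14005, with signal from 5.52 to 24.9. The 17 members between Gm5426 and Btg1 ranged from 4.56 to 24.97, and the 16 between Vrk1 and 3110018I06Rik from 5.28 to 17.3.

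**Figure D2:**
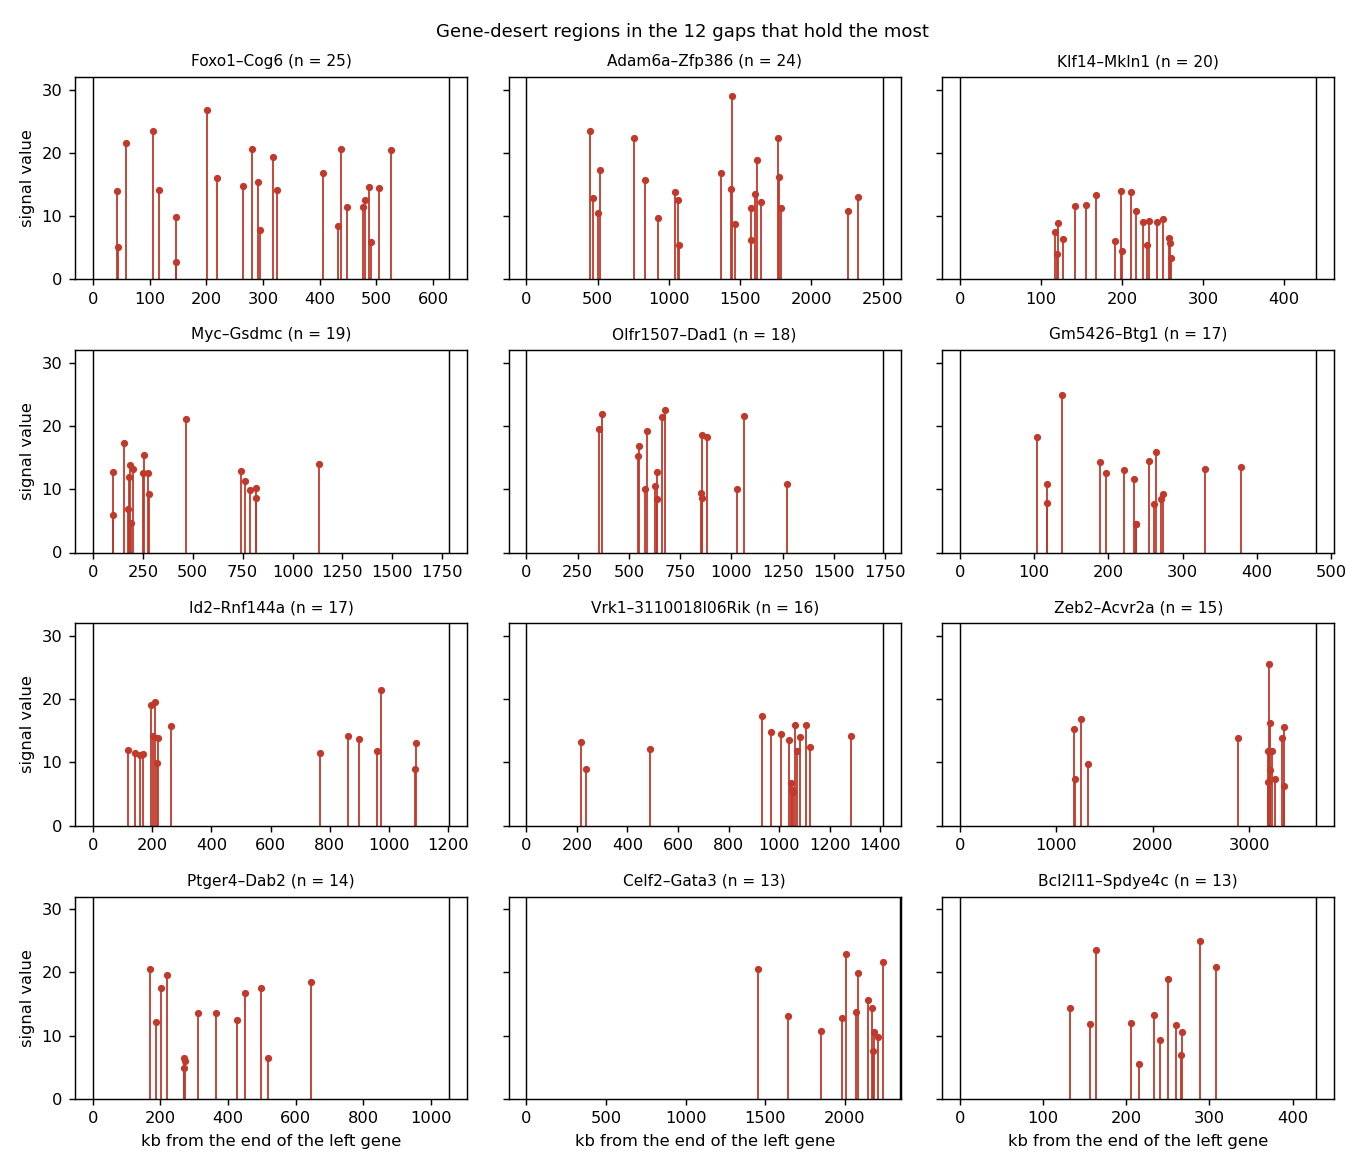
Each panel is 1 of the 12 gaps with the most gene-desert regions; the horizontal axis is the distance in kb from the end of the left gene, the vertical axis the authors' signal value, each stem 1 region, and the black lines the ends of the gap. Members spread through the Foxo1–Cog6 gap (25), crowd into 143 kb in Klf14–Mkln1 (20) and lie toward the left gene in Myc–Gsdmc (19).

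By density rather than number, the gap between Nrp1, a surface receptor of regulatory T cells, and Itgb1 came first, with 8 members in 82.3 kb of desert sequence (97.2 per Mb). Klf14–Mkln1 followed at 83.5 per Mb. The gap of Tnfaip3, an inhibitor of NF-kB signalling, held 11 members at 78.1 per Mb, and Ubl3–Katnal1 8 members at 63.3 per Mb. The Tnfaip3 members had a median signal of 9.11, and 6 lay in the body of the lncRNA gene Gm20139.

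Clusters held over 50% of the members. With successive summits of 1 gap at most 50 kb apart and at least 3 members, 115 clusters held 584 members, 52.4% (49.5 to 55.3%). Another 106 pairs and 318 lone members made up the rest. There were 78 clusters of 4 or more and 48 of 5 or more, and the median span was 55.3 kb. The longest, 190 kb between Vrk1 and 3110018I06Rik, had 12 members. Neighbours in the same gap were a median of 17.5 kb apart, and 282 of 750 pairs, 37.6%, lay within 10 kb. Only gene-desert regions were counted, so a lone member can still have accessible neighbours that lie within 100 kb of a TSS. Lone members had the higher signal: the median signal was 14.5 (13.9 to 15.2) alone, 13.5 in pairs and 12.7 (12.1 to 13.3) in clusters.

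Genes that flank fuller gaps more often had an accessible promoter. A promoter region was found at 32.8% of genes beside empty gaps, 53.8% beside gaps with 1 or 2 members, 66.4% beside 3 to 9 and 71.1% (55.2 to 83.0%) beside 10 or more. Fuller gaps were also wider, with a median of 361 kb when empty and 1056 kb with 10 or more members. The share was 38.3% over all 3080 genes beside gaps with desert sequence, and 49.1% over all protein-coding genes.

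Lists of genes were chosen with earlier results of these data known, so the counts describe and do not test. Among T cell transcription factors, 29 of 54 border desert sequence, and 25 of the 29, 86.2% (69.4 to 94.5%), had a member in a bordering gap. For receptors, cytokines and signalling genes of T cells the count was 17 of 26, 65.4% (46.2 to 80.6%). It was 11 of 57, 19.3%, for developmental transcription factors, 26 of 122, 21.3%, for neural adhesion and synapse genes, and 683 of 3080, 22.2%, for all protein-coding genes. Per Mb of bordering desert, the lists had 8.53, 8.79, 0.844 and 0.341 members, against 1.34 overall. A member in a bordering gap need not be nearest to the list gene. Of the 184 members bordering T cell transcription factors, 113 were nearest to a gene of that list. The count was 64 of 81 for receptors, cytokines and signalling genes. It was 18 of 38 for developmental transcription factors and 24 of 55 for neural genes. Chemosensory receptor genes had members at 6 of 38 genes, 15.8%, at 5.73 per Mb, and 18 of their 29 members lay in the T cell receptor locus beside Olfr1507. The order of the lists changed with the peak list. In the authors' longer pseudoreplicated list the shares were 89.7% for T cell transcription factors, 76.9% for T cell receptors, cytokines and signalling genes, and 37.2% for all genes. There the developmental transcription factors, at 47.4%, and the neural genes, at 46.7%, lay above all genes, and chemosensory receptor genes, at 31.6%, below.

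**Figure D3:**
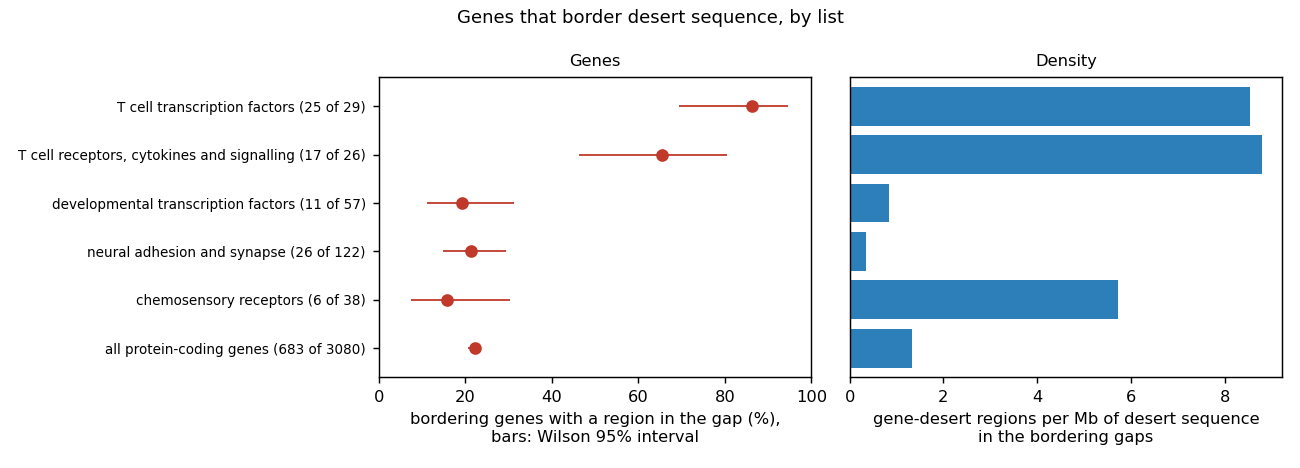
Left, the percentage of list genes bordering desert sequence that have a gene-desert region in a bordering gap, with Wilson 95% intervals and counts in the labels; right, regions per Mb of that desert sequence. T cell transcription factors stand at 86.2% and developmental transcription factors at 19.3%, beside 22.2% for all genes; in the pseudoreplicated list, not plotted, these were 89.7%, 47.4% and 37.2%.

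Within the transcription factor list the numbers were uneven. Foxo1 and Myc had 25 members each in their gaps, Id2 17, Zeb2 15, Gata3 13 and Ets1 12. Maf, a factor of helper and regulatory T cell subsets, had 10, the strongest of them 200 kb away with a signal of 25.7. Bcl6, the factor of follicular helper T cells, had 8, the strongest of the 5 nearest to it at 177 kb (11.1). Lef1, Satb1, Tox and Klf6 had 7 each and Bcl11b 6. The strongest member nearest to Lef1 lay 163 kb away (21.2), and that of Satb1 329 kb away (18.2). Ahr and Foxp1 had 4 each, of which 1 was nearest to Ahr and 0 to Foxp1. The 4 genes with none were Nfil3, Nr4a2, Rora and Zeb1, and the gaps of Nr4a2 hold 1415 kb of desert sequence.

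Among receptor and signalling genes, Ptger4 had 14 members and Tnfaip3 11. Cblb, an ubiquitin ligase that restrains T cell activation, had 9, the strongest of those nearest to it 224 kb away (26.2). Tgfbr2, a receptor for TGF-beta, had 7, all nearest to it, the strongest at 209 kb (27.6). Ifng, which encodes interferon gamma, had 6, of which 4 were nearest to it, and Itga4, an integrin, also 6. Cxcr4, a chemokine receptor, and the phosphatase gene Dusp4 had 5 each, and Icos, a costimulatory receptor, and Dusp10 had 4 each. Fasl, the gene of a death ligand, and Bach2, a repressor from the first list, each had 1, with signal of 25.9 at 117 kb and 24.97 at 112 kb. These 2 and the genes with none were named after their values were seen.

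Noncoding genes overlapped a minority. The summit lay in an lncRNA gene body for 274 members, 24.6% (22.2 to 27.2%), against 14.3% (13.4 to 15.2%) of nearer intergenic regions. Within 1 kb of an lncRNA TSS lay 82 members, 7.36%, beside 7.38% nearby. Another 23 were in pseudogenes, 3 within 1 kb of a small RNA gene (Gm28022, Mir7094-1 and Gm23764), and 745, 66.9%, in or beside none of these nor in an antigen receptor locus. Members at an lncRNA TSS had more than 1 summit in 47.6% of cases, against 36.6% of members with no lncRNA, and a median GC content of 51.7% against 47.3%. Their median signal, 13.8 against 13.6, was close.

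The strongest members at an lncRNA TSS were those of BC002059 (32.4) and Gm5165 (28.9), which are the related pair of sequences shown above beside zinc finger genes. The Gm19510 member beside Trib1 had 24.4, Gm20939 23.97, Gm37299, nearest to Adgrg6, 23.8 and Gm5444, nearest to Akr1e1, 21.9. Gm41386 beside Prickle1 had 21.6, Gm30918 beside Ly86 20.8 and Gm30246 20.1. The Gm4258 member, on the side of the gene for the leukocyte phosphatase Ptprc, had 20.1, and Gm20732 beside Zfat 19.9. Gm6740, at 21.9, lies in the T cell receptor alpha and delta locus. Of annotated VISTA enhancers, elements tested for activity in mouse embryos, 4 members overlapped 1 each (Wdfy3–Arhgap24, Mitf–Gm765, Irf2bp2–Tomm20 and Rad51b–Zfp36l1), 0.359% against 0.775% of nearer intergenic regions. Their recorded activity was in limb for 2, in branchial arch for 1 and in hindbrain and midbrain for 1.

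The strongest member without mitochondrial sequence, with a signal of 33.0, lay 417411 bp from Pdcd1, which encodes the inhibitory receptor PD-1. Its 121 bases occur once more in the genome, at chr17:84957525-84957645, inside the start of Ppm1b and its divergent lncRNA 1110020A21Rik, where the region has a signal of 13.8. Which of the copies the reads came from was not tested. The farthest member, between Cntnap5b and Cdh20 (28.5), shared a run of 31 bases with 5 other places, 1 of them in an accessible region within Peak1. The Zfp97–Riok2 member shared such runs with 2 other accessible regions of chromosome 17, with signal of 31.1 and 29.8.

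The other strong members outside antigen receptor loci were single-copy. They lay beside Tab2 (31.2), which encodes an adaptor of NF-kB signalling, Tmem114 (30.04), Atp2b1 (29.4), Spin4 and Zxdb (27.96), Actbl2 (27.9), Mbnl1 (27.7) and B3gnt2 (27.6). The summit window of the Sucnr1–Mbnl1 member was 87.1% soft-masked. Beyond Cntnap5b–Cdh20, the members farthest from a TSS included 1 between Otol1 and Sis (14.99, 1387 kb), 2 between Kcnt2 and Cdc73 (7.09 and 22.6) and 3 between Sel1l and Flrt2 (9.56 to 21.3).

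Mitochondrial sequence was aligned in 6 members, 0.539% (0.247 to 1.17%), against 0.0968% of nearer intergenic regions. They are listed apart because reads of mitochondrial DNA can be placed at its nuclear copies. The strongest member of all, between Pcdh7 and G6pd2 (chr5:60042667-60043155), had a signal of 47.9 and matched mitochondrial DNA over 383 bp at 97.9% identity. Those of Nxph1–Ndufa4 and Flrt2–Galc had 40.2 and 30.02, and 3 neighbours between Ptprd and Tyrp1 had 27.5, 17.1 and 3.67. All 6 lay over 500 kb from a TSS and had 1 summit each. Among the 50 strongest regions over 1 kb from a TSS, 7 were gene-desert regions, a class that made up 7.39% of the 15068 such regions. Mitochondrial alignments were found in 7 of the 50, and 3 of the gene-desert regions were among them.

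Motif matches were counted on either strand within 100 bp of the summit. AP-1 (TGANTCA) was matched in 17.7% of members (15.6 to 20.05%), 6.59% of flanking windows 1000 bp away and 13.3% of nearer intergenic summits. RUNX (TGTGGTT) was matched in 17.6% (15.5 to 19.95%), 4.11% and 12.9%, and the ETS letters CAGGAAGT in 16.3% (14.3 to 18.6%), 1.62% and 11.7%. Over all 26068 regions without mitochondrial sequence these 3 were matched in 9.40%, 9.49% and 9.71%. In gene bodies over 1 kb from a TSS the shares were 13.1%, 14.1% and 13.96% in the same order. For each of the 3 the interval of the members lay above that of the nearer intergenic regions. For AP-1 and RUNX it also lay above that of regions in genes, whereas for ETS it overlapped theirs (13.2 to 14.75%). At least 1 of AP-1, RUNX and both ETS forms was matched in 500 members, 45.1%, and all 3 families in 5. Neither count was taken in flanks or other regions, so both describe the members only.

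NF-kB, searched by its consensus and named here only, was matched in 7.94% of members, 1.26% of flanks and 6.77% of nearer intergenic summits. Over all regions it was matched in 5.87%. IRF was matched in 3.07%, 0.316% and 2.05%. Of the 100 strongest members 14 held an NF-kB match, and of the 100 weakest 4. The E-box CAGCTG was matched in 22 and 9 of the same groups, and in 12.7% of all members, 8.12% of flanks and 12.4% of all regions. These 2 motifs had the largest gains of the 19 searched. AP-1 was matched in 20 and 17, and some motifs went the other way, among them AGATAA (8 and 16). The median signal with and without an NF-kB match was 14.1 and 13.5, with overlapping intervals.

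Several other motifs had overlapping intervals at the summit and beside it. The GATA factor motif, AGATAA, was matched in 12.5% of members and 12.8% of flanks, and NFAT (TGGAAAA) in 5.14% and 5.82%. Forkhead (TGTTTAC), the family of Foxp3 and Foxo1, was matched in 4.69% and 3.07%, and TCF/LEF (CTTTGAT) in 5.05% and 3.56%, respectively. Over all regions these 4 were matched in 7.23%, 2.88%, 3.10% and 3.32%. KLF/SP (GGGCGGG), frequent at promoters (40.7%), was matched in 5.42% of members, 1.08% of flanks, 8.48% of nearer intergenic summits and 20.9% of all regions. Unlike those 4, its intervals at the summit (4.23 to 6.91%) and in flanks (0.729 to 1.61%) did not overlap. Of the 19 motifs searched, at least 1 was matched in 838 members, 75.6%. That share was not taken in flanks or other regions, so it does not set the members apart.

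CTCF matches were fewer in deserts than nearby. A match was found in 34 members, 3.07% (2.20 to 4.26%), against 7.80% (7.16 to 8.498%) of nearer intergenic regions, 5.06% of regions in genes, 4.03% of all regions and 0.0903% of flanks. In the pseudoreplicated list the share of members was 4.85%, and that of nearer intergenic regions was not computed there. Members with a match had 1 summit in 82.4% of cases, whereas 37.5% of all members had more than 1. Those with a match stood alone in 44.1% of cases, against 27.9% of members without. The strongest was between Gm31371 and Gm15319 (26.1), followed by Chrd–Teddm3 (18.6), both with copied sequence, then Gm10800–B230118H07Rik (18.6) and Sel1l–Flrt2 (18.0). The next were Sall3–Galr1 (17.5), Ccnd2–Parp11 (17.1), Adam6a–Zfp386 (16.3) and Dusp6–Csl (16.2).

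**Figure D4:**
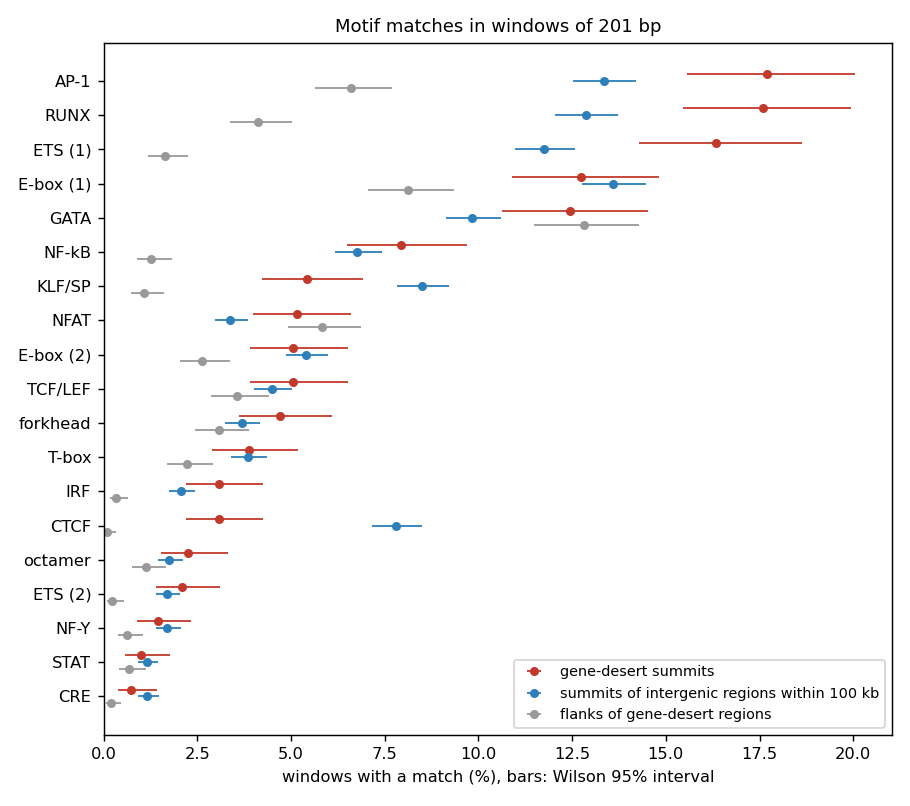
Percentage of windows of 100 bp on either side of a point with a motif match for gene-desert summits, summits of intergenic regions within 100 kb and flanks of the gene-desert regions, with Wilson 95% intervals; ETS (1) is CAGGAAGT, ETS (2) CCGGAAGT, E-box (1) CAGCTG and E-box (2) CACGTG. AP-1, RUNX and ETS (1) stand at 16.3 to 17.7% in gene-desert summits, above both other groups plotted, and CTCF at 3.07% below the 7.80% of nearer regions; regions in genes are not plotted.

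Antigen receptor loci come under the rule because their segments are not annotated as protein-coding genes. They held 45 members, 4.04%, against 0.274% of nearer intergenic regions: 25 in the immunoglobulin heavy chain locus (Igh), 18 in the T cell receptor alpha and delta locus (Tra/Trd), and 1 each in the kappa (Igk, beside Igkv8-31) and beta (Trb, beside Trbv19) loci. B cells rearrange immunoglobulin segments and T cells those of the T cell receptor. The Igh values ran from 5.47 to 29.0 with a median of 13.5, and the Tra/Trd values from 8.49 to 22.5 with a median of 16.1.

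Their summits took different places beside the V segments. In Igh, 13 of 25 summits lay 5 to 141 bp past the 3′ end of the nearest segment, 3 inside a segment and 9 farther. The recombination signal starts at that end, and not all of the 13 summits need lie on it. In Tra/Trd, 12 of 18 lay 33 to 342 bp before the 5′ end, where the V promoter is, 2 past the 3′ end and 4 farther. These windows of 150 and 350 bp were chosen after the positions were seen. The strongest Igh members were beside Ighv1-47 (29.0), Ighv14-2 (23.5), Ighv1-58 (22.4) and Ighv9-4 (22.4), and the strongest Tra/Trd members beside Trav15n-1 (22.5), Trav15d-1-dv6d-1 (21.9) and Trav15-1-dv6-1 (21.6). The heptamer CACAGTG, also searched after the positions were seen, was matched in 12 of 25 Igh members, 3 of 18 Tra/Trd members, 9.07% of other members and 5.98% of all regions.

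Of the Tra/Trd members, 16 of 18 had sequence copies elsewhere, and 5 of 25 Igh members did. The mouse Tra/Trd locus is known for repeated blocks of V segments. Pax5, a B cell gene, had a promoter region while Cd79a and Ms4a1 had none, and the part of B cells in the Igh members was not tested.

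**Figure D5:**
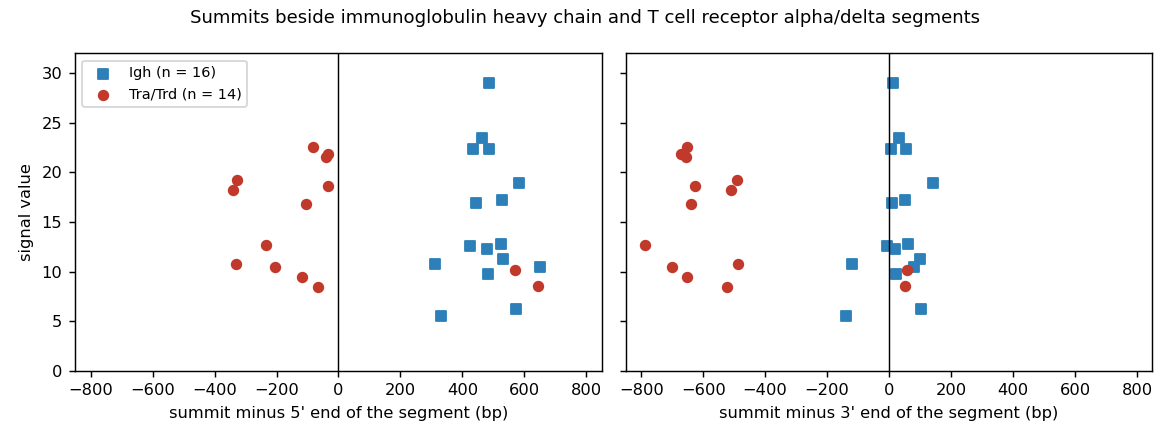
Signal value against the distance in bp from the summit to the 5′ end (left) and the 3′ end (right) of the nearest antigen receptor segment, in the direction of the segment, for members inside or close to a segment; squares are Igh, circles Tra/Trd. Tra/Trd summits lie mostly 33 to 342 bp before the 5′ end, and Igh summits mostly 5 to 141 bp past the 3′ end.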

How the data were processed

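The 3 peak lists of the series describe both libraries together, on mm10, and derive from 1 alignment, per the file headers and the text files deposited with each library. Not given in the sources used here are aligner, caller, filters and any shift of reads for the transposase. Depth is unknown. The deposited signal value is the peak caller's enrichment, which has no stated reference. The deposited score reaches 1000, the deposited −log10 columns hold the caller's p-value and q-value and, in the ranked list, the IDR and the ranking values of the 2 inputs. The summit offset of each peak is also the authors' own.

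Thresholded peaks sharing at least 1 bp were merged, and a region was given its strongest peak's signal and summit. TSSs and gene bodies came from GENCODE M21, for 21938 protein-coding genes. Mitochondrial alignments of 30 bp or more (blastn 2.17.0, E value 1e-05) kept a region out of all measures of strength. Copies were exact 31-base words within 50 bp of the summit. Shares carry Wilson 95% intervals and medians order-statistic intervals; the bounds of the difference of medians come from those. There is 1 group without replicates, so no test was run. Scripts were tested on simulated data (Python 3.11.15, numpy 2.4.6, pandas 2.3.3, scipy 1.17.1, pysam 0.24.0).

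Named were the flanking genes of the 12 strongest and 10 farthest members, of clusters of 4 or more and of the 10 fullest gaps, up to 25 T cell list genes, up to 8 members with CTCF and 12 at lncRNA TSSs, and members of antigen receptor loci; fewer are given where length required it. The members, lists and alternatives were chosen with earlier results of these data known. A marker gene of the label check is not reported here.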

Additional observations from a re-analysis of the deposited data

How the results depend on the processing

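Of the alternatives to 11 summary values, 35 left a value within its error or within 1.5 times and 31 moved it. The pseudoreplicated list gave 2769 gene-desert regions (5.53% of regions, 3.32 per Mb), a median signal of 7.59, a difference of -0.509 from nearer intergenic regions, more than 1 summit in 23.1%, 5.74% at lncRNA TSSs, and 277 clusters with 67.0% of members and up to 41 each. An IDR of 0.01 or below gave 3.81% of regions, a median signal of 15.5, more than 1 summit in 42.4%, and 72 clusters with 43.5% of members and up to 13 each. A distance of 50 kb gave 2206 regions (8.46%, 2.09 per Mb, 42.2% with more than 1 summit), and 200 kb gave 450 (1.73%, 0.770 per Mb). With the TSSs of all annotated genes 101 remained (0.387%). With 1 TSS per gene the share was 4.97%, and with unmerged peaks 3.42%. Windows of 500 and 2500 bp at lncRNA TSSs gave 5.93% and 10.3%. Cluster distances of 25 and 100 kb put 38.0% and 63.1% of members in clusters. Leaving out antigen receptor loci, chosen after seeing the data, gave 1069 regions (4.11%), a median signal of 13.5 and 108 clusters with 51.7% of members. Of the motif shares, a window of 50 bp lowered all 19, 15 of them beyond their error. The pseudoreplicated list moved 7, CTCF up to 4.85% and 6 down, among them AP-1 (15.2%) and ETS (12.3%). It raised 4 list shares, and an IDR of 0.01 or below lowered that of all genes to 18.3%. Leaving out a replicate was not possible, since no list belongs to 1 library. No paired analysis was possible because the lists pool both libraries and the study has 1 group. The unknown depth limits any statement on regions that are absent.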
